A study of Mus musculus with 5 samples.

Results

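The 5 genes described here are the forkhead factors Foxo1, Foxo3, Foxo6, Foxp1 and Foxp4, chosen by name as genes with known or supposed roles in lymphoid development, out of 44 forkhead genes and 21887 protein-coding genes in the gene table used. The data were peaks of H3K27ac, the acetylated histone mark found at active promoters and enhancers, in mouse bone marrow cells sorted as CD45.2+, lineage-negative, Sca1+ and Kit+, which the labels call HSC/MPP (stem cells and multipotent progenitors). All 4 H3K27ac libraries and the 1 input library carried the deletion of Mll3 and Mll4, so no group without the deletion was compared. The labels name neither the Cre driver, the age of the mice nor how many mice stood behind a library. The authors deposited 1 list of 22948 peaks for the 4 libraries together, so the values below have no replicate error and no test between groups. Total read numbers are unknown. In such bulk material a mark carried by few cells and a weak mark in every cell cannot be told apart.

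Forkhead proteins bind DNA through a winged-helix domain. Foxo proteins sit at the end of the PI3K and Akt pathway: Akt phosphorylates them, 14-3-3 proteins then hold them outside the nucleus, and when the pathway is quiet they return to their targets. In B-cell development Foxo1 is needed for expression of Il7r and the Rag genes, Foxo3 is best known in blood for the quiescence and stress resistance of stem cells, and Foxo6 is known mainly from the brain. Foxp1 is a repressor needed for the early B-cell stages and for naive T cells, and Foxp4 is its close relative, with which it can pair through a leucine zipper.

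The label HSC/MPP was set against marker genes. Of 10 stem and progenitor markers, 5 (50%) had a peak overlapping the 1 kb on either side of a gene end, where 36.2% of all protein-coding genes had one (Meis1, Ptprc, Flt3, Kit and Slamf1), and Ly6a, the gene of Sca1, had none. All 8 B-cell markers had such a peak, with strongest signal values from 2.69 to 12.4, against 1 of 7 T-cell markers, 0 of 6 myeloid and 0 of 4 erythroid markers. The part of these B-lineage peaks in the values at the forkhead genes was not tested.

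Foxo1 carried the most extended acetylation of the 5 genes and Foxp1 the most peaks. Foxo3 had a strong peak at its start, far narrower than the widest of Foxo1. Foxp4 had no peak with a signal value above 3.55, and Foxo6 had no peak at the gene. Of the 5 genes, 4 had a peak within 1 kb of an end, against 36.2% of all protein-coding genes, and the same 4 had a summit in the gene body, against 38% of all genes. These 4 are longer than 50 kb, and protein-coding genes of at least 50 kb had a median of 1 summit in the body. All 5 had a summit within 100 kb, as did 76.9% of all genes. The numbers within 100 kb were 34 for Foxo1, 67 for Foxp1, 10 for Foxo3, 8 for Foxp4 and 3 for Foxo6, where the median gene had 3.

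**Figure D1:**
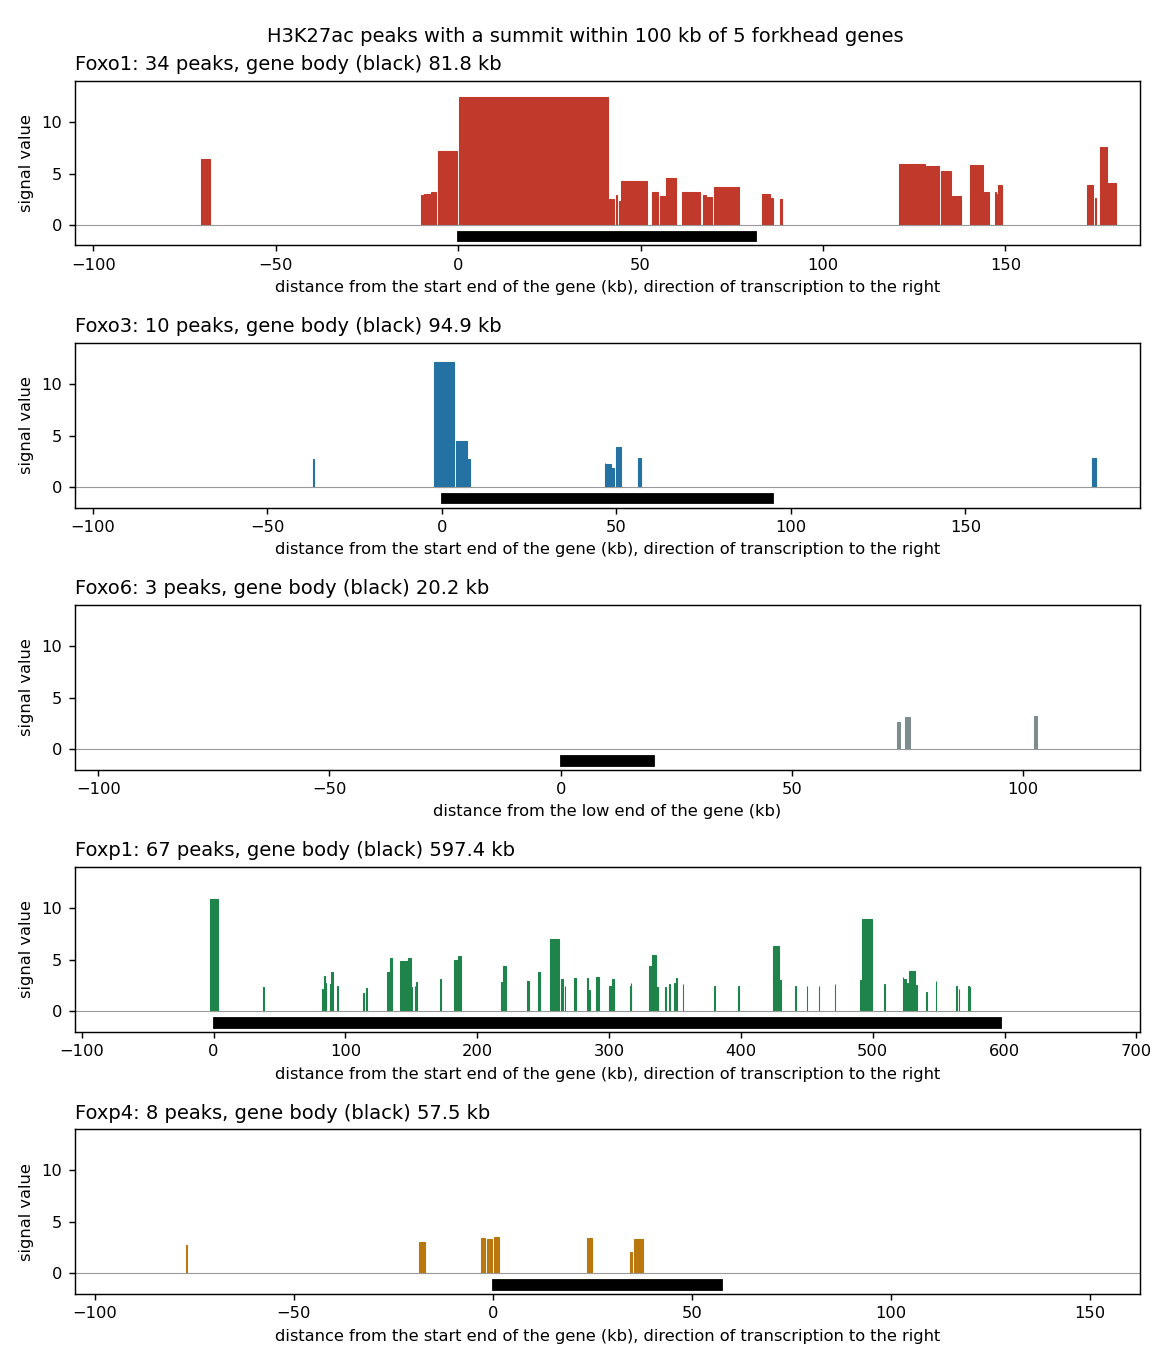
Peaks with a summit within 100 kb of each gene, drawn at their true width against the distance from the start end of the gene in kb (from the low end for Foxo6, whose strand was not in the table), with the height of a bar giving the peak's single signal value and the black bar the gene body. A block of 40850 bp stands over the start side of Foxo1, while the 67 peaks of Foxp1 are spread over 597.4 kb.

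The starts of 4 of the genes are shown first because the peaks meet them in different ways. The sequences are RefSeq promoter windows of GRCm38.p6, from 250 bases before to 50 bases after the start, written 5′ to 3′ on the strand of the gene. The table held 1 window each for Foxo1, Foxo3 and Foxp4 and 3 for Foxp1, which are numbered from the upstream end of the gene. The windows shown are Foxo1 at chr3:52268087-52268386 on the plus strand and, on the minus strand, Foxo3 at chr10:42276646-42276945, Foxp4 at chr17:47924583-47924882, the second start of Foxp1 at chr6:99266466-99266765 and the third at chr6:99028249-99028548. The first start of Foxp1 is not printed. Capitals mark matches to the motifs searched.
Foxo1: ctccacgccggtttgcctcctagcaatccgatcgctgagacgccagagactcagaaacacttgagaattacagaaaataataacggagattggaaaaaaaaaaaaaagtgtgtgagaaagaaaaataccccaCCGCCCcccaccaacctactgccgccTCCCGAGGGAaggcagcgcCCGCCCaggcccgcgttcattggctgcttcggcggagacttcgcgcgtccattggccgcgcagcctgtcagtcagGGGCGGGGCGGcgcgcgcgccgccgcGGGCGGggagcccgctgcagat
Foxo3: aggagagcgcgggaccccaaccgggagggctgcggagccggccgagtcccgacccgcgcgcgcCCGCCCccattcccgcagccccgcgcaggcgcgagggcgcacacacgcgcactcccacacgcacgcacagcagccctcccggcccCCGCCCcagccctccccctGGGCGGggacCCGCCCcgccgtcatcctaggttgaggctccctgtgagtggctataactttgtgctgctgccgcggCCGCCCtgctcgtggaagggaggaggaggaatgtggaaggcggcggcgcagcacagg
Foxp4: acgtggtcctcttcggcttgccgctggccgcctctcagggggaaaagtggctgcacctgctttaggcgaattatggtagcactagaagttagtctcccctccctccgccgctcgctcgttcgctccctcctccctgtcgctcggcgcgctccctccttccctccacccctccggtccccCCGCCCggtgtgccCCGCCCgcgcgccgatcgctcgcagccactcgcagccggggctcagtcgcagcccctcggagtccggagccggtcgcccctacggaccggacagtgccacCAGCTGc
Foxp1 start 2: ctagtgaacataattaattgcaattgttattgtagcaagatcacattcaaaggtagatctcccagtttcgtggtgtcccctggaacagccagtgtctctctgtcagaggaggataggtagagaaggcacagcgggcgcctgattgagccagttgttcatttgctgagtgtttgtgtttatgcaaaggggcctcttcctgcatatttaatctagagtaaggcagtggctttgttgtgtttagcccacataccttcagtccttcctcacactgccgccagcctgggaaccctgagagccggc
Foxp1 start 3: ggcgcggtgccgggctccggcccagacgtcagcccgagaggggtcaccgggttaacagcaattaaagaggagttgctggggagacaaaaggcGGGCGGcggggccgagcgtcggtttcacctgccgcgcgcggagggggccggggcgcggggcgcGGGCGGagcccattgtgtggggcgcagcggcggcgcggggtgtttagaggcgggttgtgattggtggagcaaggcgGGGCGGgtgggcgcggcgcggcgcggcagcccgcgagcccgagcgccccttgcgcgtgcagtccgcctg

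Foxo1 and Foxp4 had their start in a gap between peaks. At Foxo1 the nearest peak ended 237 bp before the start and the next began 204 bp after it, and at Foxp4 the distances were 352 bp before and 289 bp after. When peaks within 1 kb of each other were joined, both starts lay inside the joined peak. Among 32851 starts in the promoter table, 3.66% lay between peaks that were both within 1 kb. Foxo3 and all 3 starts of Foxp1 lay inside a peak, which held for 14.6% of the starts. The summit was 552 bp from the start at Foxo3, and 2333, 1746 and 521 bp from starts 1, 2 and 3 of Foxp1.

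**Figure D2:**
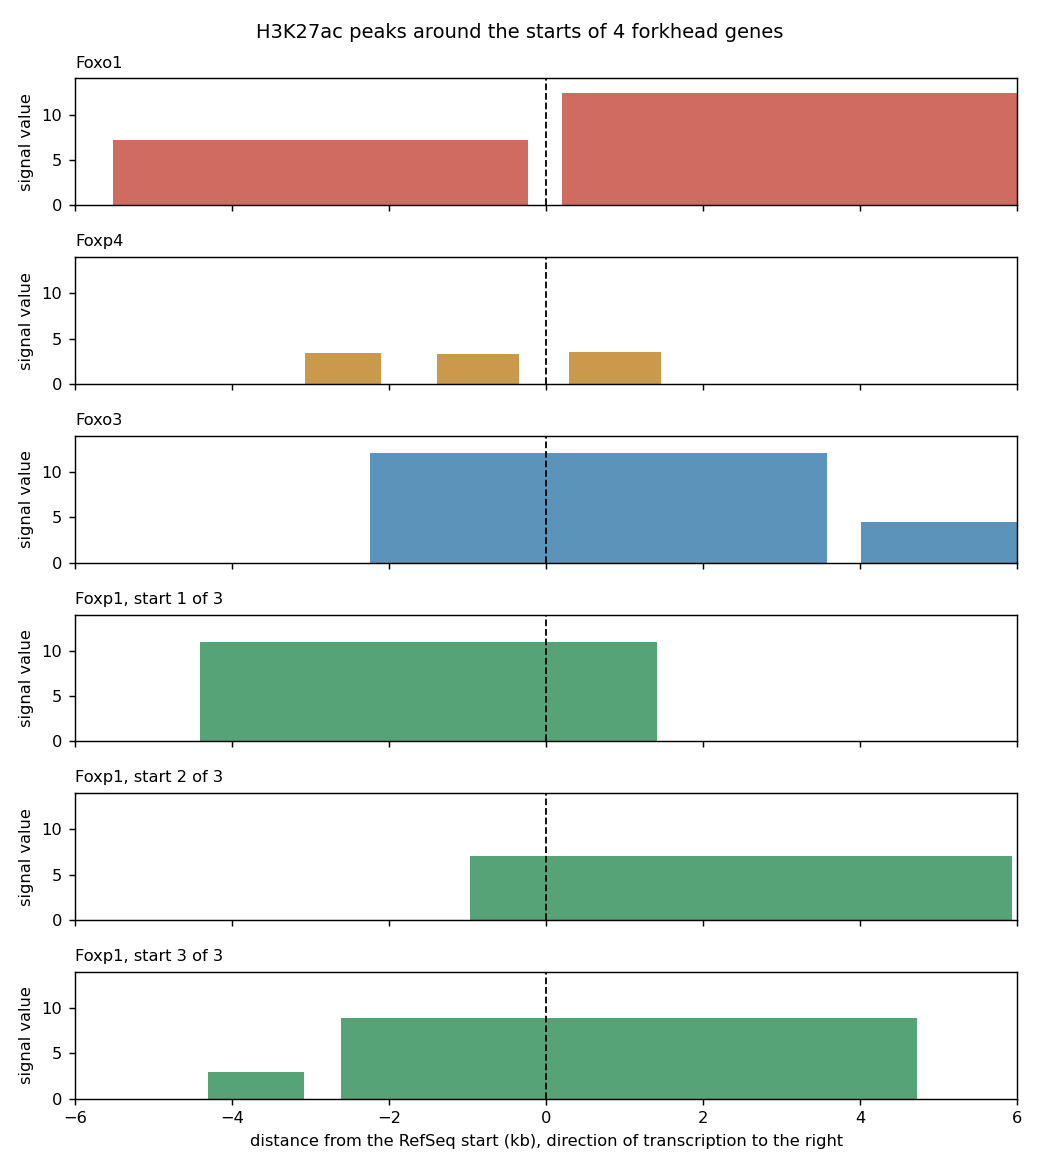
Peaks around the 6 starts, with the distance from the RefSeq start in kb on the x axis (transcription to the right), the signal value of each peak as the height of its bar, and the start as a dashed line. The start falls into a gap at Foxo1 and Foxp4 and inside a peak of 5822 to 7337 bp at Foxo3 and at each start of Foxp1.

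7 motifs were searched on both strands: the forkhead motif TGTTTAC, the palindromic Ebf1 motif, the E-protein motif CAGCTG, the Runx motif TGTGGT, the ETS motif CCGGAA, the GC box GGGCGG and the TATA box TATAAA. Matches of different motifs did not overlap in these windows, while the GC boxes that begin at bases 3 and 8 of the Foxo1 transcript share a letter. The Foxo1 window held 1 match to the Ebf1 motif, beginning 92 bases before the start, and 0.904% of all 32851 windows held one. The other 5 windows had none. GC boxes, found in 35.7% of windows, numbered 5 in Foxo1, 5 in Foxo3, 2 in Foxp4 and 1, 0 and 3 at starts 1, 2 and 3 of Foxp1. The E-protein motif, found in 16.3% of windows, had its single match in Foxp4. None of the 6 windows held the forkhead, Runx, ETS or TATA-box letters, which 3.65%, 16.8%, 14.9% and 13.6% of windows did. These matches describe letters and do not show binding.

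The windows also differed in CpG content. Foxp1 start 3 had 44 CpG, a number reached by 2.25% of all windows. Foxo3 had 35, Foxp4 33, Foxo1 31 and Foxp1 start 1 had 13. Foxp1 start 2 had 5 CpG, below the median of 7 over all windows, and lay in a peak 6899 bp wide with a signal value of 7.04.

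Foxo1 lies on chromosome 3 from 52268337 to 52350109, on the plus strand. Its widest peak, from 52268541 to 52309390, was 40850 bp wide, and its signal value was 12.4 at a −log10 q of 49.6. The signal value, read here as the authors' enrichment ratio of a peak over background, is 1 number per peak, which MACS2 gives at the summit, so it says nothing of the level along the rest of a wide peak. This 1 peak covered 49.96% of the gene body, and its summit lay 3.94 kb inside the gene. It was 1.68 times as wide as the second widest peak of the list, which was 24311 bp wide and lay at St3gal6.

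Strength did not set Foxo1 apart in the same way. Its signal value ranked 155 among all peaks, while its width ranked 1. The other 91 peaks with a signal value within 0.5 of it had a median width of 2573 bp (interquartile range 1923.5 to 3914.5 bp), and the widest of them was 11746 bp. The strongest peak of Foxo3 had nearly the same signal value, 12.2, at a width of 5829 bp, so that the ratio of Foxo1 to Foxo3 was 1.02 for the strongest signal value and 7.01 for the widest peak.

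**Figure D3:**
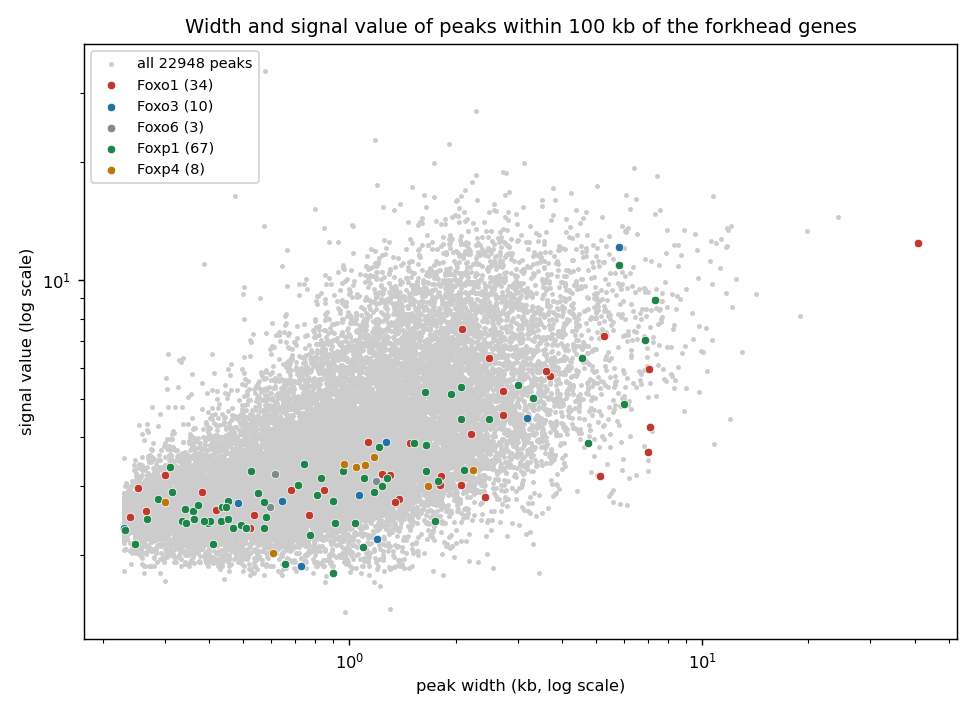
Width in kb and signal value of every peak (both log scales), with all 22948 peaks in grey and the peaks within 100 kb of the 5 genes in colour. The widest Foxo1 peak stands alone at the right edge at 40.85 kb, with peaks of Foxo3 and Foxp1 of 12.2 and 11.0 at about the same height but a few kb wide.

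Around this peak, Foxo1 had 5 peaks before its start, 13 in the body and 16 beyond its other end. The peak just before the start, from 52262815 to 52268100, was 5286 bp wide and had a signal value of 7.22 (−log10 q 19.7). A lone peak 69.9 kb before the start had a signal value of 6.37. Together the peaks covered 85.7% of the gene body, 70.1 kb of 81.8 kb. Among the 4945 protein-coding genes of at least 50 kb this was the highest share, and the median was 0.514%. The share counts weak peaks too: 3 of the 13 body peaks had a q-value above 0.05. It was not recomputed in stricter lists.

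Peaks covered at least 50% of the body in 0.0809% of those long genes. The other genes past this mark were St3gal6 (69.8%), Zmiz1 (52.8%) and Nedd9 (51.2%), named after their values were seen. Apart from the widest peak, the other 12 body peaks of Foxo1 had a median signal value of 2.92, below the 3.27 of the whole list. In width they lay above the list, with a median of 1364.5 bp against 854 bp. The widest of them, 48.1 kb from the start, spanned 7113 bp with a signal value of 4.24.

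Beyond the other end of Foxo1 the peaks fell into separate groups. A group of 3 weak peaks with signal values from 2.54 to 3.02 lay within 6.82 kb of the gene end. The next group held 9 peaks between 43.3 and 66.6 kb past the end, of which 4 had signal values of 5.25 to 5.97. The last group, from 91.8 to 98.1 kb, included the strongest peak outside the gene body within the 100 kb limit, from 52444173 to 52446263, which had a signal value of 7.54 (−log10 q 23.9). No peak within 100 kb overlapped the 1 kb around an end of another annotated gene. The nearest protein-coding genes were Maml3, 163 kb below, and Cog6, 632 kb above.

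Joining peaks no more than 12 kb apart put these groups among the largest of the list. Of 13379 clusters, 498 (3.72%) counted as top clusters, those beyond the bend of the ranked curve, where its slope, with both axes scaled to 1, first exceeded 1. The cluster over Foxo1 ranked 1 by summed signal value times length, 1.31 times the second. This product carries each peak's summit value over its whole width, and so gives wide peaks a high rank without measuring their total acetylation. By covered length alone, the Foxo1 cluster also ranked 1. It spanned 98.9 kb from 10.2 kb before the start, with 20 peaks that filled 83.1% of it. The group past the gene end ranked 63, with 9 peaks over 28.2 kb. The last group continued past the 100 kb limit to a span of 60.8 kb with 19 peaks, the strongest of them at 7.62, and ranked 41.

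The other genes had lower clusters. The start of Foxo3 ranked 110, with 3 peaks over 10.3 kb, and was its only top cluster of 4. By covered length alone it ranked 255, and the best cluster of Foxp1 ranked 55. With peaks left out whose summit lay within 1 kb of a protein-coding gene end, as did those of the peaks at the start of Foxo3 and at start 1 of Foxp1, the best cluster of Foxo3 ranked 1277 and that of Foxp1 79. Foxp1 had 17 clusters, of which 4 were top ones. These ranked 111, 183, 218 and 269, and the first 3 of them held its starts 2, 3 and 1. The best of Foxp4 ranked 3188, or 1388 by covered length and 1763 with those end peaks left out. No cluster overlapped Foxo6.

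**Figure D4:**
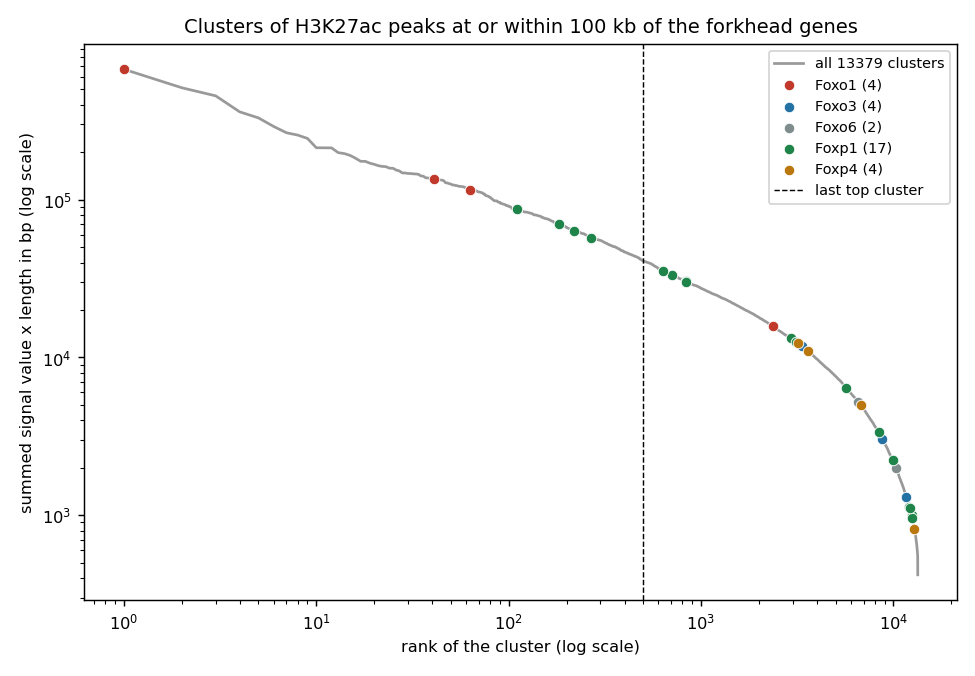
Clusters of peaks joined within 12 kb, ranked by summed signal value times length in bp (both axes log), with all 13379 in grey and those at or within 100 kb of the 5 genes as coloured points. The dashed line marks the last of the 498 top clusters. Foxo1 holds ranks 1, 41 and 63, and the point of Foxo3 at rank 110 is hidden by that of Foxp1 at rank 111.

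Foxo3 lies on chromosome 10 from 42181845 to 42276695, on the minus strand. Its start was covered by a peak from 42273113 to 42278941, 5829 bp wide, that had a signal value of 12.2 (−log10 q 47.3). That peak ranked 187 by width among all peaks. By the strongest peak at an end, Foxo3 ranked 148 and Foxo1 126 among the 7929 genes that had any. The value of Foxo1 came from its widest peak, whose summit lay 3.94 kb from the start. Of peaks with the summit itself within 1 kb of an end, Foxo1 kept only the one of 7.22, below the 12.2 of Foxo3, so the order turned. The peak at the start of Foxo3 also overlapped the window at an end of the lncRNA Gm38485. A second peak just inside the gene, 3188 bp wide, had a signal value of 4.47. A small group near the middle of the gene, from 46.7 to 57.1 kb past the start, held 5 peaks with signal values from 1.88 to 3.88. The peaks covered 12.3% of the body. The lone peak on the upstream side, 36.6 kb away, lay at an end of its neighbour Afg1l.

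Foxp1, on chromosome 6 from 98925342 to 99522746 on the minus strand, is 597 kb long, and 66 of its 67 peaks had their summit in the body. Only Arid1b, with 69, had more summits in its body. In the list limited to a −log10 q of 5 or more, 13 of the 67 peaks were left, beside 12 of the 34 of Foxo1, and at signal values from 4 up there were 12 and 11. The 3 strongest of the 67 were those over its 3 starts, a pattern noticed after the values were seen. The peak at start 1 had a signal value of 11.0 and was 5822 bp wide. The peak at start 3, 493 kb further into the gene, had 8.94 and was 7337 bp wide. The peak at start 2, 254 kb into the gene, had 7.04. The next in strength, with 6.33, lay 427 kb from the upstream end and overlapped the window at an end of the transcript Gm19665. Of 82 protein-coding genes with at least 3 starts spread over at least 100 kb in the table, every start lay in a peak in 1.22%, which was Foxp1 alone.

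Most of the other Foxp1 peaks were weak and narrow. The median over all 67 was 743 bp and a signal value of 2.75, below the list's 854 bp and 3.27, and 30 peaks, or 44.8%, had a q-value above 0.05, against 21.2% of the whole list. The peaks covered 88.7 kb, or 14.9% of the body. In the same measure Foxo1 had 5 peaks with a q-value above 0.05, or 14.7%.

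Foxp4 lies on chromosome 17 from 47867133 to 47924632 on the minus strand. Its 8 peaks had signal values from 2.03 to 3.55, and none reached −log10 q of 5. Their median signal value was 3.33, against 3.27 over the whole list. The peaks next to its start had signal values of 3.55 on the gene side and 3.36 on the upstream side, below 4.71, the median of the strongest end peak over all genes that had any. Another, 2.88 kb upstream, had 3.43, and both upstream peaks overlapped the window of the lncRNA Gm46601. The peaks covered 8.91% of the body.

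Foxo6, on chromosome 4 from 120267078 to 120287261, had no peak in its body or within 1 kb of its ends. The nearest of its 3 peaks lay 52.9 kb above its high end, and their signal values were 2.66, 3.09 and 3.23. No call at this unknown depth does not show that the mark was absent.

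Set side by side, Foxo1 exceeded each relative in length covered within 100 kb, in covered share of the body and in widest peak. In length covered within the body, Foxp1 had more, 88.7 kb against 70.1 kb. Peaks within 100 kb of Foxo1 covered 113 kb in all, against 91.4 kb for Foxp1, 15.4 kb for Foxo3, 9.10 kb for Foxp4 and 2.40 kb for Foxo6. Only Zmiz1, with 116 kb, had more among all protein-coding genes. The widest peak of Foxo1 was 5.57 times that of Foxp1 (7337 bp), 7.01 times that of Foxo3, 18.2 times that of Foxp4 (2239 bp) and 34.4 times that of Foxo6 (1187 bp). In number of peaks Foxp1 led, with a log2 ratio of Foxo1 to Foxp1 of -0.98. Per 100 kb of gene and flanks the order turned, to 12.1 peaks for Foxo1 and 8.40 for Foxp1 (log2 ratio 0.52), ahead of 3.39 for Foxo3, 3.11 for Foxp4 and 1.36 for Foxo6. The median gene had 1.32. The neighbours Foxo3 and Foxp4 in this order differ by little, and no error could be attached to either. With peaks joined within 1 kb, Foxo1 had 11 within 100 kb and Foxp1 43. Foxp1 then led Foxo1 per 100 kb as well.

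**Figure D5:**
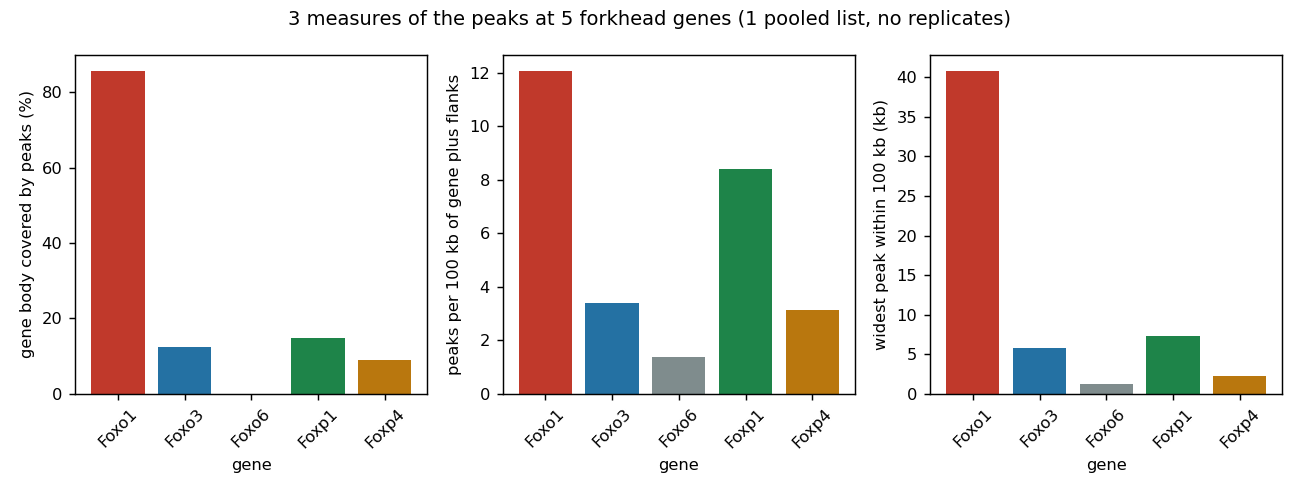
The share of the gene body covered by peaks in percent, the number of peaks per 100 kb of gene and flanks, and the widest peak within 100 kb in kb, 1 bar per gene from the pooled list, with no error bars because no replicate values were given. Foxo1 is highest in all 3 panels, at 85.7%, 12.1 and 40.85 kb. With peaks joined within 1 kb, Foxp1 would stand above Foxo1 in the middle panel.

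The genes most like Foxo1 were sought among 7927 other genes with a peak at an end (1 more was left out because its 100 kb window meets that of Foxo1), by the distance over 4 standardised measures within 100 kb (widest peak, covered length, number of peaks, strongest signal value). The median distance was 6.85. St3gal6, a sialyltransferase gene, was nearest at 1.85, with 15 peaks, 43.8 kb covered and a widest peak of 24311 bp. Nedd9, which encodes a scaffold protein of integrin signalling, followed at 2.28, with 45 peaks and 102 kb covered but a widest peak of 10775 bp. Pkig and Serinc3, both at 2.30, and Ttpal, at 2.35, share a single peak of 12061 bp and are not separate examples.

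Among the other 39 forkhead genes, 7 had a peak at an end, or 17.9%, beside 36.2% of all genes. These were Foxn3 (strongest signal value 7.85), Foxm1 (5.17), Foxk2 (5.02), Foxj2 (4.25), Foxn2 (3.95), Foxj3 (3.70) and Foxk1 (3.61). Foxn3 came nearest to Foxp1, with 20 peaks within 100 kb and a widest peak of 7628 bp. The remaining members of the Foxo and Foxp groups had no peak at an end: Foxo4 had 4 peaks within 100 kb, Foxp3, the regulator of regulatory T cells, had 1, and Foxp2 had 0. Of the 39 genes, 11 had no peak within 100 kb.

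Genes that act upstream and downstream of Foxo proteins were taken from lists of 25 each, written with earlier results of these data known, and some of the target genes are also B-cell markers. Of the 25 regulators, 18 (72%) had a peak at an end, beside 36.2% of all protein-coding genes, with a median strongest signal value of 4.83 against 4.71 over all genes with one. The strongest were at Inpp5d (11.97), the lipid phosphatase SHIP1 that opposes PI3K, Pik3ca (8.999), a catalytic subunit of PI3K, and Akt2 (8.08), a kinase that phosphorylates Foxo proteins. Of the 25 known Foxo targets, 21 (84%) had one, beside the same 36.2%, with a median of 6.92. The strongest were at Trib1 (16.1), a pseudokinase gene, Blnk (13.6), the adaptor of the B-cell receptor, and Ebf1 (12.4), the early B-cell factor. None of these lists was tested against other genes.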

How the data were processed

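Per the labels' protocols, sorted cells were fixed and H3K27ac chromatin was precipitated and tagmented with Tn5 (ChIPmentation). Per the submitters' processing notes, BWA, MACS2 and the build mm10 were used; their roles, versions and settings are not given in the sources used here. The authors deposited 1 narrowPeak list without header for 4 H3K27ac libraries over 1 input library; its name marks an optimal overlap set of peaks, and the rule for overlap is not given. Column 7, called signal value here, was taken for the authors' fold enrichment ratio over background, the usual content of that column, since no header names it. The list also holds deposited −log10 p-values, −log10 q-values and a score, and none of these was recomputed. These values describe single peaks and were used only within the list. Coordinates are 1-based.

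Genes came from RefSeq GRCm38.p6, the same assembly as mm10, on chromosomes 1 to 19, X and Y. That table has no exons, so peaks were not placed in exons or introns. Strand and starts came from the RefSeq promoter table, in which 4 of the 5 genes were found; its orientation was checked on 1629 pairs of overlapping windows on opposite strands, which matched in 1629. Sequence of peaks and proteins was not used here. A peak was at a gene end when it overlapped the 1 kb on either side, in a body when its summit lay between the ends, and near a gene when its summit lay within 100 kb. Clusters joined peaks within 12 kb. Named were all 5 genes, the other forkhead genes with a peak at an end, the 3 genes of each list with the strongest peak at an end and the 5 genes most like Foxo1. The counting was tested on simulated peaks with known answers. The genes, lists and measures were chosen with earlier results of these data known. Python 3.11.15, pandas 2.3.3 and numpy 2.4.6 were used.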

Additional observations from a re-analysis of the deposited data

How the results depend on the processing

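Stricter lists left fewer peaks: 8291 at −log10 q from 5 up, 18089 at q-values up to 0.05 and 7787 at signal values from 4 up. Foxo1 then had 12, 29 and 11 peaks within 100 kb in place of 34, and 4, 10 and 3 in its body in place of 13. Foxp1 had 13, 37 and 12 in place of 67 within 100 kb, and 12, 36 and 11 in place of 66 in its body. In the same lists Foxo3 had 2, 7 and 2 in place of 10 within 100 kb, and 1, 4 and 1 in place of 7 in its body. At −log10 q from 5 up and at signal values from 4 up, Foxo6 and Foxp4 had 0 within 100 kb in place of 3 and 8. With 50 kb in place of 100 kb Foxo1 had 22 and Foxo6 had 0. Joining peaks within 1 kb was an alternative chosen after the data were seen. It left Foxo1 with 11 peaks within 100 kb and 3 in its body. The widest of Foxo1 was then 62004 bp and lay over its start. Foxp1 then had 43 within 100 kb and 42 in its body, Foxo3 5 and 2, and Foxp4 5 and 3. The widest peaks of Foxp1, Foxo3 and Foxp4 became 10791, 10340 and 4530 bp. Foxo1 and Foxp4 then had 1 end peak each in place of 2. The log2 ratio of Foxo1 to Foxp1 in number of peaks went from -0.98 to -0.12, -0.35 and -0.13 in the 3 stricter lists. It went to -1.97 after joining, and to 0.52 per 100 kb of window in the list as deposited. After joining, Foxp1 led per 100 kb of window as well. What moved the ratio was not tested.

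The cluster over Foxo1 ranked 1 under each of the 6 alternatives tried. All 6 kept its peak of 40850 bp, so the rank without that peak was not measured. With its summit 3.94 kb from the start, this peak also counted among the distal ones. The best cluster of Foxo3 went from rank 110 to 1277 with distal peaks alone and to 255 by covered length, and that of Foxp1 from 111 to 79 and 55, so that their order turned; under the other 4, Foxo3 ranked 79 to 100 and Foxp1 133 to 146. Foxp4 went from 3188 to 1763 and 1388. Foxp4 lost its end peaks at −log10 q from 5 up and at signal values from 4 up, which left 3 of the 5 genes with such a peak; under the other alternatives there were 4. With the summit itself required inside the 1 kb window, Foxo1 and Foxp4 each kept 1 end peak in place of 2, and Foxo1 lost its widest and strongest. Of 172 recomputed values, 123 stayed within 1.5 times the reported one, 48 moved further and 1 changed direction. Values that vanished under an alternative, such as the widest peak of a gene left with no peak, were not counted. Some of the 123 could hardly change, such as a widest peak that passed every filter, so the tally does not measure stability. No paired analysis was possible because the deposited columns belong to the pooled libraries, and for that reason none was left out in turn. Planned motif counts in peaks and the comparison of proteins were not run. Depth is unknown, so the precision of weak peaks was not measured.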

Other observations

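Beyond the 100 kb limit, the interval between Maml3 and Cog6 that holds Foxo1 had 67 peaks covering 166 kb, with 5 on the Maml3 side of Foxo1 and 49 on the Cog6 side. The farthest lay 623 kb past the gene, near Cog6. No other protein-coding gene lies between these peaks and Foxo1, and the list does not show which gene they act on. The interval of Foxp1 held 69 peaks, of which 3 had their summit outside the gene, among them the peak over start 1, which reaches into it.

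The −log10 p-values of weak peaks repeat. The 67 peaks near Foxp1 had 28 distinct values and the 34 near Foxo1 had 23.

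Gaps between the 20 peaks of the Foxo1 cluster had a median of 440 bp, and 15 of the 19 gaps were at most 1 kb.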
